A study of Mus musculus with 3 samples.

Results

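The genes described here encode the phosphofructokinases and the bifunctional enzymes that regulate them, in skeletal muscle in which Foxo1 had been targeted. They are Pfkfb1, Pfkfb2, Pfkfb3, Pfkfb4, Pfkm, Pfkl and Pfkp, chosen as a family by name with the ratio of Pfkfb3 already known from these data. All probes whose accession belongs to one of the 7 genes were taken, which gave 10 probes on 19 spots of each array, of 39429 probes and 43020 spots that were not controls. Of these 10 probes 9 were bright enough to be tested, and each of the 7 genes was among the 17460 genes tested. Pfkfb3, Pfkfb4 and Pfkp had a pair of probes each, and the single Pfkm probe was printed in 10 spots.

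The mFoxO1KO group carried an inducible deletion of FoxO1 in skeletal muscle, and the control group did not. Per the labels both groups were male C57BL/6 mice on an AIN93G diet with doxycycline (0.625 g/kg), begun at 8 weeks of age and continued until 14 weeks, so that the controls received the inducer too. The driver of the deletion and the residual Foxo1 in other cells of the muscle are not given in the sources used here. RNA of lower-limb muscle from 3 biological replicates of each group was hybridised in pairs to 3 Agilent arrays of 2 colours. The mFoxO1KO RNA was in Cy5 and the control RNA in Cy3 each time, and no array had the dyes swapped. Dye and genotype therefore cannot be told apart for any single probe. This holds for every ratio and call below, those of Pfkfb3 included.

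Phosphofructokinase phosphorylates fructose 6-phosphate and commits it to glycolysis, and it is the main regulated step of that pathway. Its isozymes are built from the muscle (Pfkm), liver (Pfkl) and platelet (Pfkp) subunits, and skeletal muscle uses mainly the muscle form. The 4 Pfkfb enzymes each carry a kinase and a phosphatase that make and remove fructose 2,6-bisphosphate, a strong activator of phosphofructokinase. Pfkfb1 is the form of liver and muscle, Pfkfb2 that of heart and kidney, Pfkfb4 that of testis, and Pfkfb3 is an inducible form with a high ratio of kinase to phosphatase activity.

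Foxo1 transcript was lower in the mFoxO1KO channel of each array, with log2 ratios of -1.50, -2.42 and -2.27 for the brighter probe, or 23.9% of control on average. The dimmer Foxo1 probe had -0.70, -1.64 and -1.84, or 38.1% of control on average. It did not pass in the fit across all probes (limma, adjusted p = 0.0535). It is not known here if either probe reads the deleted stretch. The mFoxO1KO channel had 56.1% to 56.9% of its probes well above background, against 52.0% to 55.9% for the control channel, and no spot was saturated. All 8 skeletal muscle markers on the array, among them Ckm and Acta1, were well above background in both channels of every array. Their summed normalised intensities were 668650 to 707640 in mFoxO1KO and 630847 to 669357 in control muscle. Of these 8 genes, 4 were higher and 2 lower in mFoxO1KO on every array. The 2 lower ones were Ttn (log2 ratios -0.70, -0.30 and -0.06) and Ryr1 (-0.61, -0.38 and -0.10), and neither passed the test. The log2 ratios of array pairs had Pearson's r of 0.51 to 0.54 across 17460 genes, which are not independent replicates. In bulk tissue fewer cells of a type and less RNA per cell cannot be told apart.

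The start regions of Pfkfb3 are shown because this gene carried the one large difference of the family and because FoxO1 is a transcription factor that binds short DNA elements. RefSeq places its transcripts at start sites in 2 separate regions of chromosome 2, and the sequences run from 250 bases before to 50 bases after each start site, both on the minus strand of GRCm38.p6. Capitals mark ACGTG, the core of the element bound by hypoxia-inducible factors, on either strand. The first window is chr2:11553880-11554179 and the second chr2:11502041-11502340.
Pfkfb3 window 1: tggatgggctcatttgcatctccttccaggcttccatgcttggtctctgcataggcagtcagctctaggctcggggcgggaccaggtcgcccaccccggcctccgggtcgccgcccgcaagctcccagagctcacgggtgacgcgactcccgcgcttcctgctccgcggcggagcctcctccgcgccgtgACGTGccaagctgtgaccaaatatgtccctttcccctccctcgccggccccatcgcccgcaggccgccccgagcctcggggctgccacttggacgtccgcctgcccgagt
Pfkfb3 window 2: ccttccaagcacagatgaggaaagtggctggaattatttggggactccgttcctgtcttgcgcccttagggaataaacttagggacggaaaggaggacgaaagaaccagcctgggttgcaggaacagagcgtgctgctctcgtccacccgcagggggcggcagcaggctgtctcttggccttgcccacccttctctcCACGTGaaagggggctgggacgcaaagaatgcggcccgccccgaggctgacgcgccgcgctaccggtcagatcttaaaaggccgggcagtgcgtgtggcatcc
The ACGTG core began 60 bases before the start site in window 1. In window 2 it was read on both strands, at 53 and 52 bases before the start site, because the matches overlap in CACGTG. The FoxO element GTAAACA and its variant form CAAAACA, searched on both strands, were in neither window, nor in any of the 16 windows of the 7 genes, some of which overlap. Of all 32851 promoter windows 3.65% held GTAAACA, 6.28% held CAAAACA and 19.6% held ACGTG. The hypoxia core was in 6 of the 16 windows, from Pfkfb2, Pfkfb3 and Pfkm. A match is a run of letters and no match says only that the letters are not in these windows.

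Pfkfb3 was lower in mFoxO1KO muscle on all 3 arrays and by both of its probes, while none of the other 6 genes of the family passed the test. Its brighter probe had normalised intensities of 12263, 10085 and 5626 in mFoxO1KO muscle, against 39947, 48146 and 14177 in control muscle on the same arrays. All 3 mFoxO1KO values lay below all 3 control values, as they did for 11.8% of all genes, but the gap was narrow, since the highest mFoxO1KO value was 0.865 of the lowest control value. Array 3 had the lowest intensity in both channels. There the control value was 2.82-fold below that of array 1 and 3.40-fold below that of array 2, and the spread of the controls (34090 ± 17726, SD, n = 3) was larger than that of the mFoxO1KO samples (9325 ± 3383, SD, n = 3). Within each array, where both samples were read in the same spot, mFoxO1KO was at 30.7%, 20.9% and 39.7% of control.

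The mean log2 ratio of Pfkfb3 by this probe was -1.76 ± 0.46 (SD, n = 3 arrays), or 3.40-fold lower in mFoxO1KO. The ratio was among the lowest of the array, at rank 4 from the bottom of 17460 genes on average and at ranks 39, 4 and 11 on arrays 1, 2 and 3. The genes below it were Foxo1, Dkk3 and Htra4. These values are given as a description with no p-value, because the family was chosen with them known.

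The second Pfkfb3 probe, designed to another transcript accession of the gene, was dimmer and was also lower in mFoxO1KO on every array. It had normalised intensities of 249, 308 and 204 in mFoxO1KO muscle, against 549, 793 and 359 in control muscle. Again the groups did not overlap and array 3 was lowest in both channels. Its log2 ratios were -1.14, -1.36 and -0.82, with a mean of -1.11 ± 0.27 (SD, n = 3) or 46.4% of control. On each array it was nearer to 0 than the brighter probe, by 0.56, 0.89 and 0.51. With the scanner software's own background-corrected signals, that is, the deposited log ratios, the probes were closer, at -1.73 for the brighter and -1.50 for the dimmer one. The part of probe brightness and of the transcripts read in the gap between the probes was not tested.

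**Figure D1:**
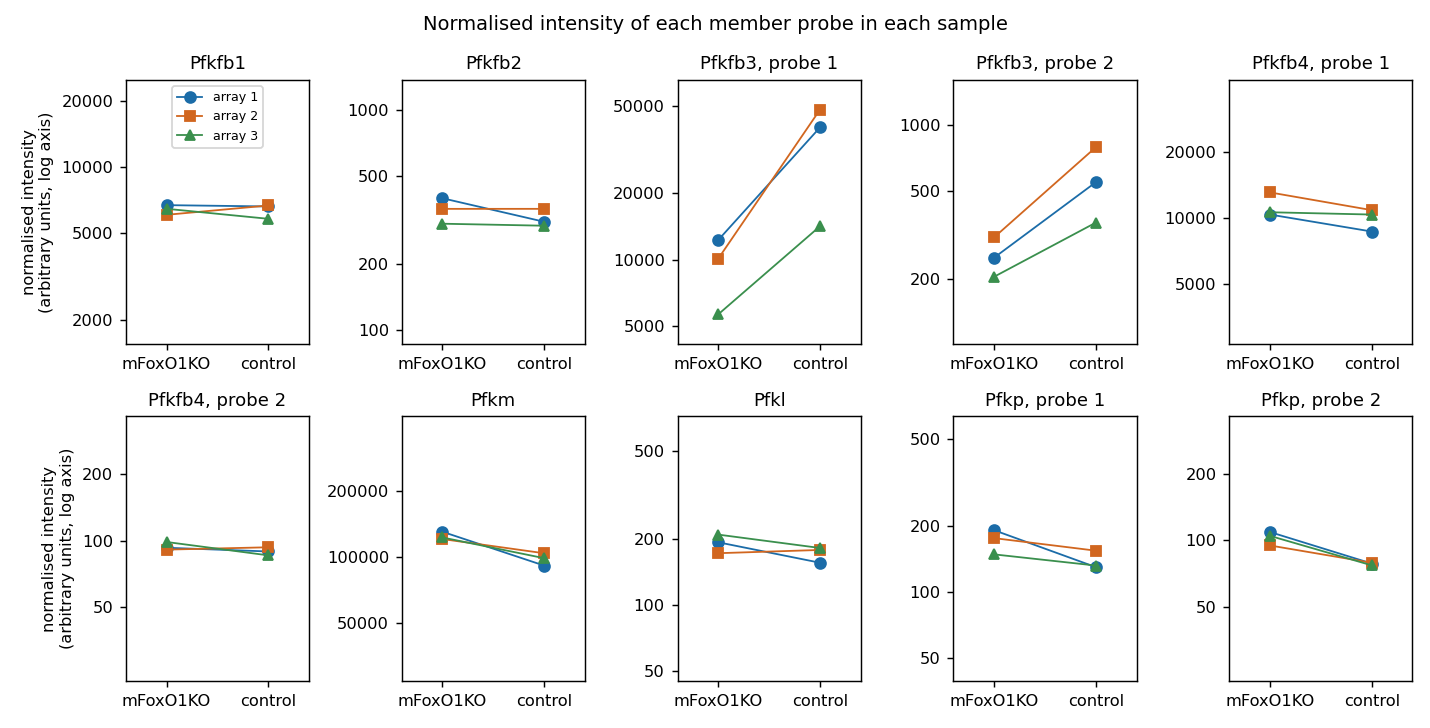
Normalised intensity (arbitrary units, log axis spanning the same fold in every panel) of the 10 probes in mFoxO1KO muscle (left) and control muscle (right), with a line joining the samples of an array. Both Pfkfb3 probes drop steeply toward mFoxO1KO on all 3 arrays, with array 3 lowest in both channels, while the lines of the other probes differ less between the groups.

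Of the other genes that make fructose 2,6-bisphosphate, none passed the test. Pfkfb1, the form of liver and muscle, had normalised intensities of 6695, 6050 and 6444 in mFoxO1KO muscle, against 6603, 6670 and 5802 in control muscle. The groups overlapped and the log2 ratio was 0.01 ± 0.15, with 0.02, -0.14 and 0.15 on the arrays. Its mean was the nearest to 0 of the 7 genes, and its difference was smaller than the spread between arrays.

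Pfkfb4 was slightly higher in mFoxO1KO on every array by its brighter probe, but the groups overlapped. Its normalised intensities were 10378, 13088 and 10631 in mFoxO1KO muscle, against 8684, 10868 and 10377 in control muscle. The log2 ratio was 0.19 ± 0.13, or 1.14-fold, and was smallest on array 3 (0.03). The second Pfkfb4 probe was not well above background on any mFoxO1KO array and on 1 control array only, so it was not tested. Pfkfb2, known best for its activation in heart, had intensities of 397, 356 and 304 in mFoxO1KO muscle, against 311, 356 and 298 in control muscle. Its ratio of 0.13 ± 0.20 came mainly from array 1 (0.36), with 0.03 on array 3 and a value close to 0 on array 2, and the groups overlapped.

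The muscle subunit gene Pfkm was among the brightest of the array and was measured with the most spots. Its normalised intensities were 130069, 120468 and 122474 in mFoxO1KO muscle, against 91192, 103787 and 98575 in control muscle. All mFoxO1KO values were above all control values, as they were for 14% of all genes. The log2 ratio was 0.35 ± 0.15 (SD, n = 3 arrays), or 1.27-fold higher, with 0.51, 0.22 and 0.31 on the arrays, and did not pass the test. Among the spots of 1 array the ratio had an SD of 0.09 on array 1 (9 spots, after 1 was left out as an outlier), 0.08 on array 2 and 0.08 on array 3 (10 spots each). Scatter between spots is technical and does not show how mice vary.

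The value of Pfkm differed between settings. With median centring in place of loess it was 0.77 and passed the test, and with the deposited log ratios it was 0.14 and did not. It lay above 0 in all 15 alternatives. Of the 147 genes with a mean log2 intensity above 16, a limit chosen after the data were seen, 125 had a ratio above 0 and the median was 0.21, against 0.01 for the 17313 genes at or below it. Pfkm, at a mean log2 intensity of 16.7, was exceeded or equalled by 42 of those 147, itself included. The part of the dye and of intensity in its ratio was not tested.

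The subunits of other tissues were dim. Pfkl, the liver subunit, had normalised intensities of 193, 172 and 209 in mFoxO1KO muscle, against 155, 178 and 181 in control muscle, and a log2 ratio of 0.15 ± 0.18. The groups overlapped and array 2 went the other way (-0.05). Pfkp, the platelet subunit, had 192, 176 and 149 in mFoxO1KO muscle, against 130, 155 and 132 in control muscle. Its log2 ratio was above 0 on all 3 arrays, at 0.31 ± 0.22, with 0.56 on array 1 and 0.19 and 0.17 on arrays 2 and 3, and the groups overlapped.

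The second Pfkp probe was well above background on all 3 mFoxO1KO arrays and on no control array. Its normalised intensities were 109, 94.9 and 105 in mFoxO1KO muscle, against 78.6, 79.2 and 77.1 in control muscle, so the groups did not overlap. Because the control side is only a limit, it is given as at least 1.22-fold higher in mFoxO1KO. The bound takes as control level, per array, the higher of the probe's own control value and the dimmest value that counted as detected, and a dye bias is not removed from it. The probe did not pass the test as processed here, and passed in 6 of 13 alternatives. It entered the test through the mFoxO1KO channel alone, in which it was higher, so these calls support nothing about its direction.

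**Figure D2:**
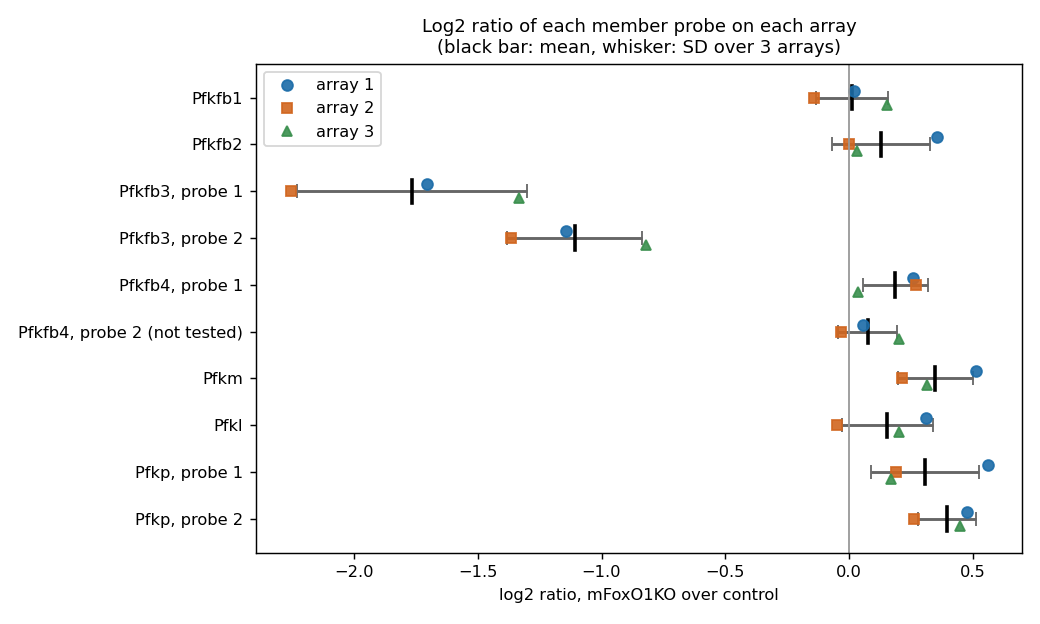
Log2 ratio of mFoxO1KO over control for the 10 probes on each array, with the mean (black bar) and SD over 3 arrays (whisker). Both Pfkfb3 probes lie below -0.8 on every array, and the means of the other 8 probes lie between 0.01 and 0.39.

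In the fit across all genes 1 of the 7 members passed an adjusted p of 0.05 (limma), Pfkfb3 in the downward direction, where 0.699% of all 17460 genes passed downward and 2.06% upward (2.75% in all). In the fit across all 21393 probes above background, 2 of the 9 member probes passed, the pair of Pfkfb3, against 0.739% of all probes downward and 2.03% upward (2.77% in all). Of the 8 member probes well above background in both channels, the groups did not overlap for 3, with mFoxO1KO below control for both Pfkfb3 probes (11.7% of all probes) and above control for Pfkm (13.7% of all probes). Ratios were below 0 on every array for 2 of these 8 probes (24.3% of all probes) and above 0 on every array for 3 (27.9% of all probes), those of Pfkm and the brighter ones of Pfkp and Pfkfb4. The second Pfkp probe is left out of both counts, since it was tested only through the channel in which it was higher. The shares beside the counts for the 8 probes are of all 21393 probes tested. Those include probes well above background in 1 channel only, so the sets are not alike. Nothing is read from these shares, since the choice of the family used this comparison. The Pfkfb3 call was lost without replicate 2 (log2 ratio -1.52) and with the deposited log ratios (-1.73), among other settings given at the end, while its log2 ratio stayed between -1.98 and -1.44 in all 15 alternatives.

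**Figure D3:**
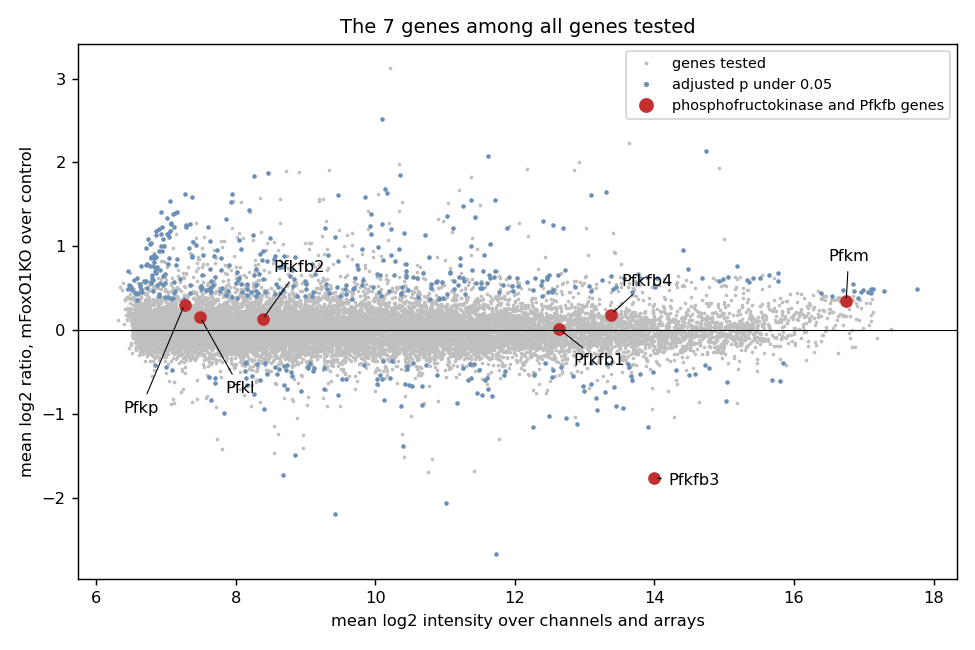
Mean log2 ratio of mFoxO1KO over control against mean log2 intensity for all 17460 genes tested (grey), those past an adjusted p of 0.05 (blue) and the 7 phosphofructokinase and Pfkfb genes (red, labelled). Pfkfb3 lies at -1.76, Pfkm lies at the bright end, where most genes are above 0, and the other 5 lie between 0.01 and 0.31.

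The 6 members other than Pfkfb3 had mean log2 ratios between 0.01 and 0.35, and all 6 means were above 0, though only Pfkfb4, Pfkm and Pfkp were above 0 on every array. The median over the 7 genes was 0.15, against 0.01 over all genes tested. On arrays 1, 2 and 3 the median of the 6 was 0.33, 0.09 and 0.16, and 4 of the 6 had their highest ratio on array 1. Adipocyte markers also had their highest ratios on array 1. Of 12 adipocyte genes on the array 10 were well above background on all arrays. Of these 10, 8 were higher on every array and none passed the test, with medians of 2.89, 0.22 and 1.50 on arrays 1, 2 and 3. Their summed normalised intensity ranged from 102582 to 208970 in mFoxO1KO and from 40790 to 94128 in control muscle, and Lep was below background throughout. The part of fat in the ratios of the 6 genes was not tested. Pfkfb3 had its lowest ratio on array 2, where the adipocyte median was smallest. Its ratios were -1.70, -2.26 and -1.33 on arrays 1, 2 and 3, and the part of fat in them was not tested. The neutrophil median was 0.50, 1.12 and 0.41 on arrays 1, 2 and 3, but it covers only 2 genes. S100a9 had 0.89, 2.19 and 0.76, while Elane had 0.10, 0.05 and 0.07, lowest on array 2. S100a9 was well above background on 3 mFoxO1KO arrays and 1 control array. It was thus counted only through the channel in which it was higher.

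Endothelial cells are known to use Pfkfb3, and of 10 endothelial genes 10 were above background, 4 were higher on every array, none was lower on every array and none passed the test. Their medians on the 3 arrays were 0.26, 0.09 and 0.09, and their sums were 13497 to 18177 in mFoxO1KO and 12011 to 17872 in control muscle. Of 7 macrophage genes 6 were above background and 1 passed, Cd14, a receptor for bacterial lipopolysaccharide, which rose by 0.95 (limma, adjusted p = 0.0453), with sums of 2355 to 2997 in mFoxO1KO and 1834 to 2639 in control muscle. Cd14 had log2 ratios of 0.61, 1.19 and 1.06 on arrays 1, 2 and 3, highest on array 2, and the macrophage medians were -0.10, 0.34 and 0.44. Fibroblast and Schwann cell lists had 7 genes each, all above background and none past the test, with sums of 49630 to 69027 and 2130 to 3350 in mFoxO1KO, against 45563 to 71206 and 2156 to 2609 in control muscle. Of 6 erythroid genes 4 were above background and none passed, with sums of 10437 to 19796 in mFoxO1KO and 7301 to 19719 in control muscle. Of 7 neutrophil genes 2 were above background in at least 1 channel of all arrays and none passed. The sums over all 7 were 833 to 1480 in mFoxO1KO and 716 to 770 in control muscle. Mpo and Cxcr2 were below background, while S100a8 was above it on 0 control arrays and S100a9 on 1. The control sums are therefore partly a background level. The part of these cells in the Pfkfb3 ratio was not tested. Of all genes tested, 2.06% passed as higher and 0.699% as lower.

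Aldoa, Hk2 and Gapdh rose among the other enzymes of glycolysis. Of 17 tested genes of an 18-gene list, 3 rose, where 2.06% of all genes did, none fell and 14 did not pass (limma). The means of 15 of the 17 were above 0, as were those of 9050 of all 17460 genes, and the list's median was 0.29, against 0.01 over all genes. Aldoa, the muscle aldolase that splits the product of phosphofructokinase, rose by 0.49 ± 0.04 (SD, n = 3, adjusted p = 0.0392). With the deposited log ratios Aldoa had 0.17 (adjusted p = 0.276). Hk2, the insulin-responsive hexokinase upstream of phosphofructokinase, rose by 0.45 ± 0.03 (adjusted p = 0.0406). Gapdh, the dehydrogenase of the lower pathway, rose by 0.47 ± 0.11 (adjusted p = 0.0490), and its other 6 probes had 0.25 to 0.49. Only 1 of those 6 passed, the Gapdh call held in 7 of 15 alternatives, and the Gapdh ratio was 0.35 as the mean over probes (adjusted p = 0.0635) and 0.11 with the deposited log ratios (adjusted p = 0.33). The list's medians on the 3 arrays were 0.29, 0.28 and 0.28. Pgk1 (0.63, 0.33 and 0.46), Pgam1 (0.70, 0.28 and 0.46) and Tpi1 (0.53, 0.17 and 0.28) were highest on array 1 and lowest on array 2. That is the order of the adipocyte medians, but most genes of the list did not have it. The 3 genes that rose were highest on array 3, with 0.45, 0.49 and 0.52 for Aldoa. Hk2 had 0.42, 0.45 and 0.48, and Gapdh 0.50, 0.34 and 0.56. The part of fat in these ratios was not tested. The median was 0.28 over the 6 glycolysis genes above the intensity limit of 16 and 0.29 over the 11 others. Of those 6 genes 2 rose, where 9.52% of all genes above the limit did. Of the 11 others 1 rose, where 1.99% of all genes at or below the limit did. The list median was 0.62 with median centring only, when the median of all genes was 0.16, and 0.17 with the deposited log ratios, when none of the pathway genes passed.

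Phosphatases that act on fructose phosphates gave no call. Fbp2, the fructose bisphosphatase of muscle, had 0.26 ± 0.30 (limma, adjusted p = 0.25), and Tigar, whose product lowers fructose 2,6-bisphosphate, had -0.10 ± 0.30 (adjusted p = 0.631). The sign of the Tigar ratio turned with median centring (0.16). The other Tigar probe had -0.28 (limma across all probes, adjusted p = 0.129). Fbp1, the liver form, was not well above background and was not tested.

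Among 16 upstream regulators of these enzymes, all tested, 1 fell (0.699% of all genes), none rose (2.06% of all genes) and 15 did not pass. The median was -0.09, or 0.12 with median centring only. The gene that fell was Prkab2, a regulatory subunit of the AMP-activated kinase, which phosphorylates Pfkfb enzymes, at -0.44 ± 0.09 (SD, n = 3, limma adjusted p = 0.0489). It was -0.16 with median centring only (adjusted p = 0.572). The next by p were 2 further subunits of that kinase, Prkag3, typical of fast muscle, with -0.42 ± 0.11 (adjusted p = 0.0532), and Prkaa2, the catalytic subunit of muscle, with -0.38 ± 0.14 (adjusted p = 0.068), neither past the threshold. Of the other subunits of the kinase, Prkaa1 had -0.19 and was below 0 on every array. Prkag1 had 0.22, Prkab1 0.17 and Prkag2 0.15, and none of these subunits passed. Hif1a, the hypoxia-inducible factor subunit that drives Pfkfb3 in hypoxic cells, had -0.14 ± 0.13 (adjusted p = 0.285).

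Of 13 hypoxia-inducible genes tested, 1 rose (2.06% of all genes), none fell (0.699% of all genes) and 12 did not pass. The median was 0.05. Car9, a carbonic anhydrase, rose by 0.58 ± 0.08 (limma, adjusted p = 0.0356), Adm, the adrenomedullin gene, had 0.40 ± 0.12 (adjusted p = 0.0572), and Ankrd37 had -0.35 ± 0.21 (adjusted p = 0.108). In the glycogen list 1 of 12 genes rose and none fell, against the same shares of all genes, and the median was 0.03. Ppp1r3c, which brings a phosphatase to glycogen, rose by 0.96 ± 0.22 (adjusted p = 0.034). The glycogen synthase gene Gys1 had 0.37 ± 0.12 (adjusted p = 0.0666) and Phka1, a phosphorylase kinase subunit gene, -0.26 ± 0.08 (adjusted p = 0.0889).

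Fibre genes, which differ in their use of glycolysis, gave 1 call in each list. Of all genes 0.699% fell and 2.06% rose. Of 12 tested fast fibre genes 1, the myosin light chain gene Myl1, fell by 0.60 ± 0.09 (limma, adjusted p = 0.0356), none rose and the median was -0.05, or 0.37 with median centring only. It fell by 0.23 with median centring only, without passing (adjusted p = 0.37). The calsequestrin gene Casq1 had -0.28 ± 0.05 (adjusted p = 0.0709) and Myh1 0.39 ± 0.24 (adjusted p = 0.104). Of 11 slow fibre genes Mb, the myoglobin gene, rose by 0.57 ± 0.14 (adjusted p = 0.0449), none fell and the median was 0.11. Both list medians changed sign between arrays. On arrays 1, 2 and 3 the slow fibre median was -0.17, 0.33 and 0.02, and the fast fibre median -0.12, -0.07 and 0.11. The part of fibre types in the ratios of the 7 genes was not tested. Atp2a2, the slow calcium pump, had 0.28 ± 0.08 (adjusted p = 0.0818) and Myh7, the slow myosin, -0.47 ± 0.38 (adjusted p = 0.142). The other Atp2a2 probe had 0.09 (limma across all probes, adjusted p = 0.357). The mean over Atp2a2 probes was 0.18 (limma, adjusted p = 0.129). Without replicate 2, 0 genes of all these lists passed, and without replicate 3, 1 passed as higher and 0 as lower.

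**Figure D4:**
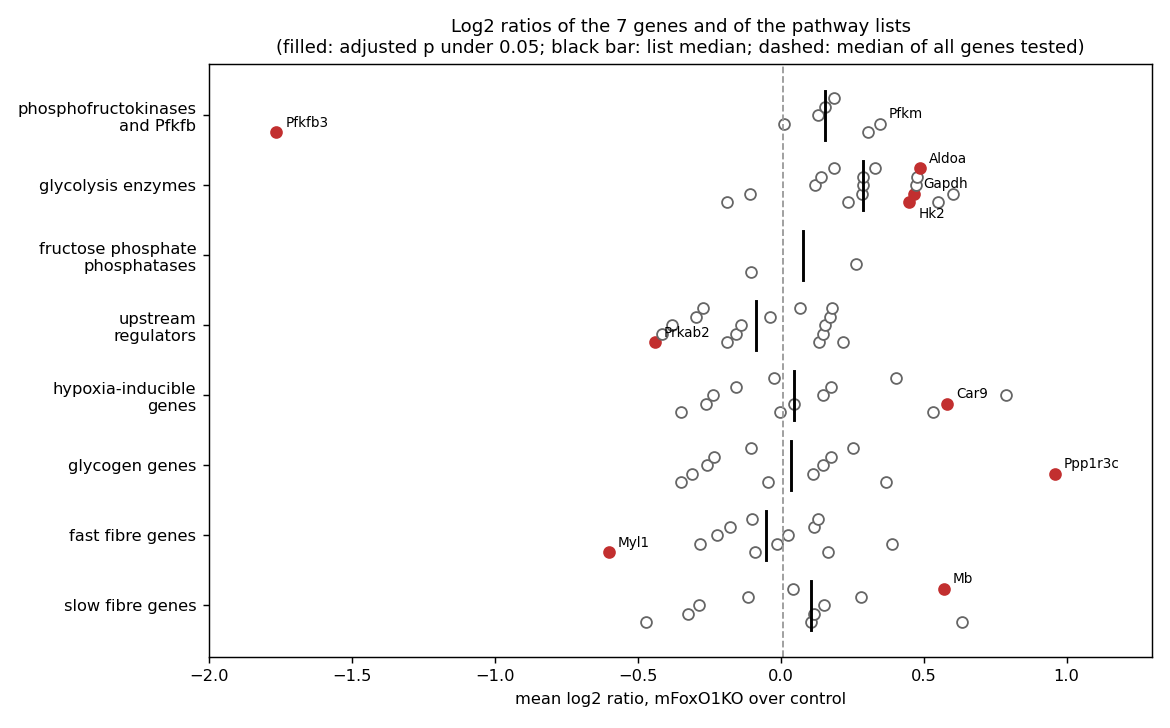
Mean log2 ratio of mFoxO1KO over control of the 7 genes (top) and of each gene tested in the pathway lists, filled where the adjusted p was under 0.05, with list medians (black bars) and the median of all genes (dashed line). Pfkfb3 at -1.76 lies far below every gene of the lists, whose lowest ratio is -0.60, and the glycolysis median of 0.29 is the highest of the lists.

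Genes near to Pfkfb3 were sought among the 12995 tested genes with a symbol, members left out, by Euclidean distance over 3 log2 ratios. The nearest were Foxo1 (0.97), Flrt1 (1.09), Plac9a (1.17), Kcnab1 (1.24) and Slc12a2 (1.28). These distances exceeded the SD of 0.46 of Pfkfb3 over the arrays, though a distance over 3 ratios and an SD are unlike measures. Foxo1 differed from Pfkfb3 most on array 3, where it was at -2.27 and Pfkfb3 at -1.33. The other Flrt1 probes had 0.01 and -1.02. Likeness over 3 arrays that share their hybridisation is a description of these arrays.

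**Figure D5:**
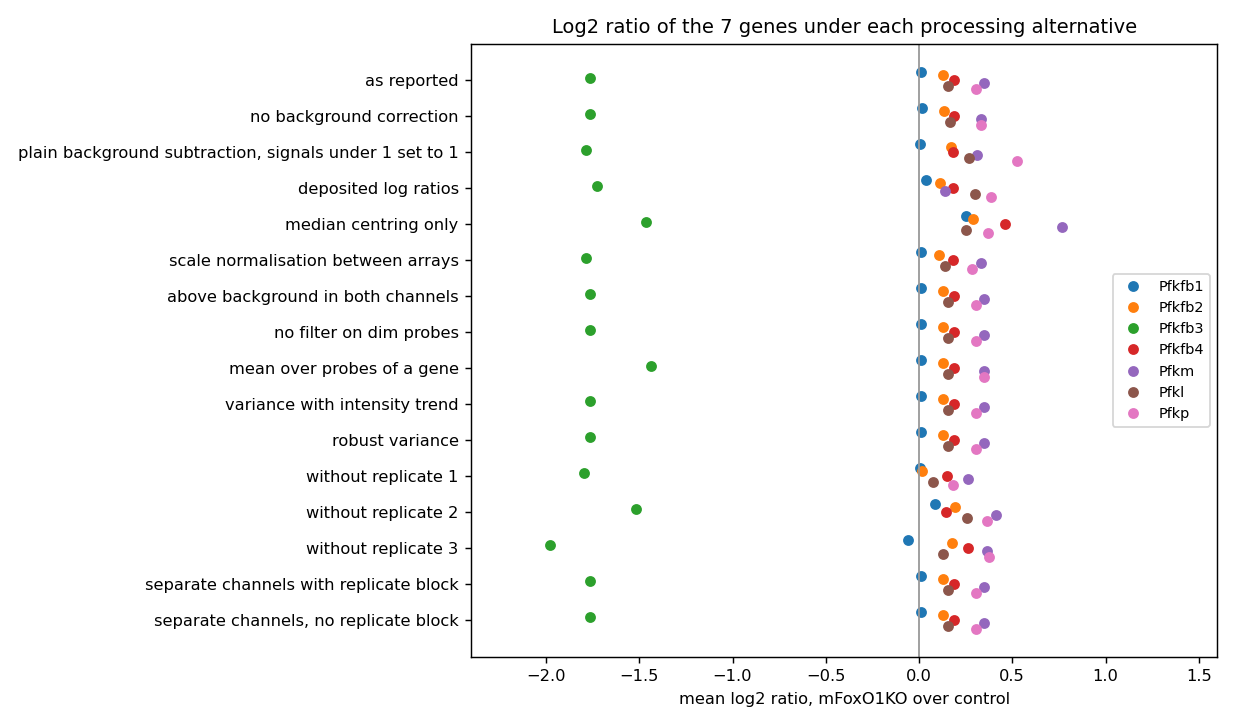
Mean log2 ratio of mFoxO1KO over control of the 7 genes as reported (top) and under each of 15 processing alternatives. Pfkfb3 stays between -1.98 and -1.44, and Pfkm ranges from 0.14 with the deposited log ratios to 0.77 with median centring.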

How the data were processed

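Per the file headers, Agilent Feature Extraction 11.5.1.1 wrote 1 file per array, while the submitters' processing notes name 9.3.2.1. The deposited files hold median spot and background intensity per channel as scanned, processed intensity values and log10 ratios of processed Cy5 over Cy3 by the authors' scanner software. Flags of other kinds were deposited with them. Accessions, without version, were matched to the GRCm38.p6 RefSeq table, which named 27508 of 39429 probes (69.8%). The headers name an older mouse build.

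In limma 3.58.1 (R 4.3.3) median signals were corrected with normexp (offset 50) and loess, with control spots at weight 0, and 281 to 319 outlier spots per array were left out. Replicate spots were averaged. Probes were tested where either channel alone was well above background on all 3 arrays (in at least a share of 0.5 of the spots), and the brightest probe stood for a gene. Normalised intensities are the channels after quantile normalisation of the mean log2 intensities between arrays, which leaves ratios as they are. Log2 mFoxO1KO over control was tested against 0 (lmFit, eBayes, two-sided, Benjamini-Hochberg over 17460 genes, threshold 0.05). The array pairs the channels. On simulated ratios for these 17460 genes with 50 changed genes of each size, 31 were recovered at 1.5-fold, 37 at 2-fold and 49 at both 4-fold and 8-fold, with 4 false calls in 170. The simulated noise was drawn for each gene on its own around 0, without dye bias, intensity trend or tissue differences. The false calls of the simulation therefore do not give the error rate of the calls in these data. The precision is limited by the number of arrays.

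Members and lists were chosen with earlier results of these data known. Named are all members, Foxo1, each list gene past the threshold and otherwise up to 3 by smallest p, and the 5 genes nearest to Pfkfb3. Cd14, S100a8, S100a9, Elane, Ttn, Ryr1, Dkk3, Htra4, Hif1a, Pgk1, Pgam1, Tpi1, Prkaa1, Prkag1, Prkab1 and Prkag2 were named after their values were seen. Protein sequences were not analysed here. Alternatives covered background, dye balance, filter, probe choice, variance, pairing and each array left out.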

Additional observations from a re-analysis of the deposited data

How the results depend on the processing

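All 15 alternatives kept Pfkfb3 below 0 (-1.98 to -1.44), and 11 of them kept its call. It was lost with the deposited log ratios, with the filter on both channels, without replicate 2 and with no replicate block. Calls among the 7 genes, 1 as reported, were 0 in those 4 settings and 2 with median centring only, and ranged from 0 to 1 when single replicates were left out. Calls among member probes, 2 as reported, were 0 with the filter on both channels and with no replicate block, 3 in 6 settings (no background correction, plain subtraction, median centring only, scaling between arrays, no filter and an intensity trend in the variance), and 0 to 2 without single replicates. The third was Pfkm with median centring and the second Pfkp probe in the other 5. Median centring only moved Pfkfb1 to 0.25, Pfkfb4 to 0.46 and Pfkm to 0.77, the deposited log ratios moved Pfkm to 0.14, and plain background subtraction moved Pfkp to 0.53. Over all genes 481 passed (359 higher, 122 lower), against 264 with plain subtraction (225 higher, 39 lower), 212 with the deposited log ratios, 1205 with median centring (1154 higher, 51 lower), 842 with scaling between arrays, 55 with the filter on both channels, 747 with no filter, 216 with no replicate block, and 50 to 434 without single replicates. Over all probes 593 passed, against 293, 200, 1263, 1045, 63, 890 and 215 in the same order of settings, and 66 to 347 without single replicates. In the pathway lists 6 genes passed as higher, against 2 with plain subtraction, 0 with the deposited log ratios, 20 with median centring, 0 with the filter on both channels and 0 to 5 without single replicates. In them 2 passed as lower, against 1, 0, 0 and 0 in that order, 1 with no replicate block and 0 to 1 without single replicates. With median centring the sign turned for Casq1 (0.0032), Phka1 (0.10) and Tigar (0.16), and without single replicates Tigar ranged from -0.28 to 0.0046. The fit with the array as a replicate block gave the reported calls, 481 genes, because the array already pairs the channels within each ratio. Apart from the filters, which change the genes tested, and single replicates, which leave fewer arrays, the cause was not tested.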
